A study of Xenopus tropicalis with 4 samples.

Results

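The transcripts described here followed the replicate number of their library in both treatments. They were chosen from the measured values: a gene was a member when its mean level over the 4 libraries was at least 20 CPM (a gene's read count divided by all reads on genes in that library and multiplied by 1000000) and both libraries of one replicate number were at least 2 times the larger value of the other number. Of 34177 gene identifiers, 6472 reached a mean CPM of 20. Of these, 67 genes were higher in replicate 2 (1.04% of the 6472) and 37 were higher in replicate 1 (0.572%), 104 in all. Because the rule itself used the levels in all 4 libraries, the differences between the replicate numbers below are a description and carry no test.

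The tissue was the animal cap of Xenopus tropicalis, an explant of prospective ectoderm cut out at the blastula stage. Caps were pooled for each library and collected when sibling embryos had reached stage NF16. Embryos of the xPhf8 group received Xenopus Phf8 mRNA and no morpholino. The study's methods describe this clone as a truncated form that keeps the N-terminal part of the histone demethylase. The xRescue group carried the same mRNA and, in addition, translation-blocking morpholinos against suv4-20h1 and suv4-20h2, the enzymes that add further methyl groups to monomethylated lysine in histone H4. Both groups therefore overexpressed phf8. Libraries without the mRNA were not analysed here. Each group held replicates 1 and 2, and the libraries are called xPhf8 1, xPhf8 2, xRescue 1 and xRescue 2. The labels do not state what the replicate number marks, nor whether the replicates were separate clutches or cultures, so any p-value measures only the spread between these samples, which may be technical. A clutch, a preparation and a day cannot be told apart as the source of a shared number.

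Animal caps left in culture form the mucociliary epidermis of the tadpole skin. This epithelium holds goblet cells, which secrete mucus and lectins over the surface, ionocytes, which move ions and acid across the skin, small secretory cells, which release serotonin and antimicrobial material, and multiciliated cells, which drive fluid along the embryo. The non-goblet types arise in an inner layer and insert themselves between the outer cells while the epithelium matures, so their transcripts appear progressively during these stages. In bulk RNA, fewer cells of a type and less RNA per cell cannot be told apart.

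The libraries held 26632491, 43303059, 27803072 and 27014575 reads on genes in the order xPhf8 1, xPhf8 2, xRescue 1 and xRescue 2, an order kept for every set of 4 values below. A count of 3 reads corresponded to between 0.0693 and 0.113 CPM. xRescue 1 detected the fewest genes, 14412, against 16076 to 16652 in the other libraries. Reads on the phf8 gene, which do not separate the injected transcript from the embryo's own, came to 2813, 2028, 2532 and 1405 CPM. Both replicate 1 libraries were thus above both replicate 2 libraries, by less than the 2-fold that membership needs. The transcripts of suv420h1 (101.2 to 125.3 CPM) and kmt5c (45.5 to 97.4 CPM) do not check the morpholinos, which block translation. Of genes fixed as markers of tissues other than epidermis, 0 of 8 neural and 0 of 7 endodermal genes with an identifier reached a mean CPM of 20. The numbers that did were 3 of 6 for neural crest and plate border, 3 of 8 for mesoderm and muscle, 5 of 11 for germ plasm and oocyte and 1 of 7 for blood and macrophages. None of the genes in these 6 lists were members. Of all 6472 genes only 1.04% and 0.572% were members in the 2 directions, so with so few list genes measured nothing is read from this.

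The 67 genes higher in replicate 2 were together a small part of each library: they took 0.171% of the reads in xPhf8 1, 0.671% in xPhf8 2, 0.117% in xRescue 1 and 0.476% in xRescue 2. Their median level was 17.7, 70.9, 11.5 and 52.1 CPM, whereas the median of all 6472 genes stayed between 54.5 and 62.9 CPM. The 37 genes higher in replicate 1 took 0.362%, 0.113%, 0.389% and 0.132% of the reads, with medians of 50.1, 17.1, 51.9 and 18.1 CPM. In both directions the members sat at moderate levels. The most abundant was slc26a4, with a mean of 202.8 CPM, among those higher in replicate 2, and hal.1, with a mean of 613.4 CPM, among those higher in replicate 1.

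The distance between the replicates was of similar size in the 2 treatments. For genes higher in replicate 2, the median fold of replicate 2 over replicate 1 was 3.74 in xPhf8 and 3.70 in xRescue (quartiles of the log2 difference, with 0.5 CPM added, 1.52 to 2.60 and 1.47 to 2.74). For genes higher in replicate 1, the median fold of replicate 1 over replicate 2 was 3.13 in xPhf8 and 2.56 in xRescue. The difference was wider between the xRescue replicates for 33 of the 67 and 18 of the 37 members. Over all 6472 genes the median log2 difference of replicate 2 over replicate 1 was -0.14 in xPhf8 and -0.05 in xRescue.

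**Figure D1:**
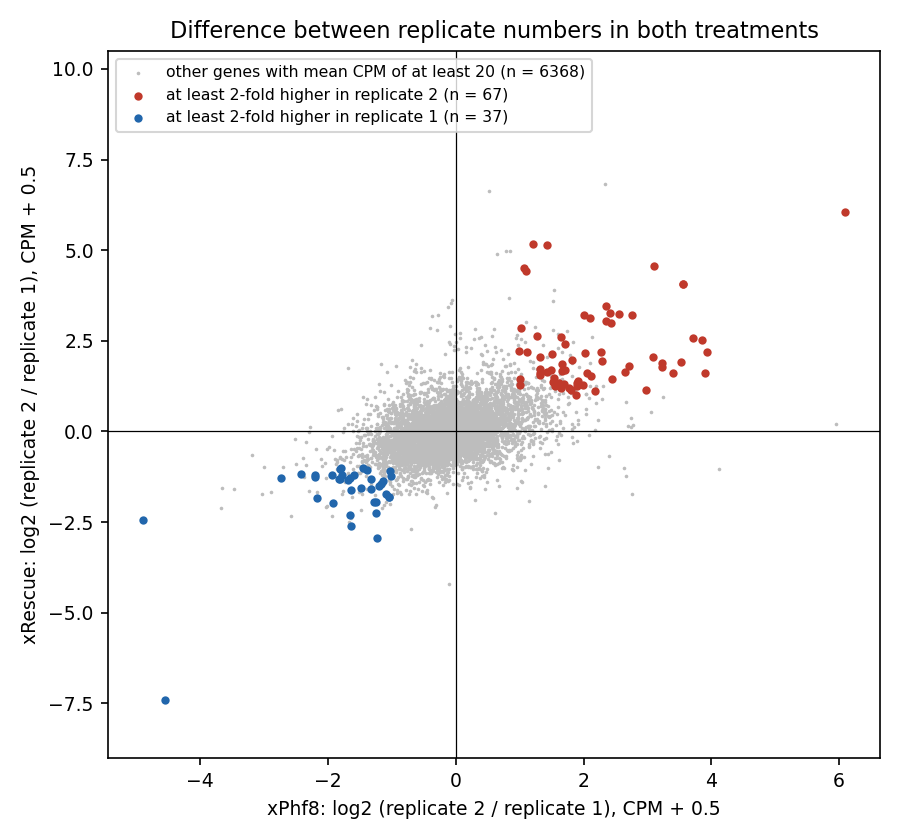
Difference between replicate 2 and replicate 1 in xPhf8 (x axis, log2 of CPM plus 0.5) against the same difference in xRescue (y axis) for the 6472 genes with a mean CPM of at least 20, with the members coloured by direction. The 67 genes higher in replicate 2 occupy the upper right corner and the 37 higher in replicate 1 the lower left, as the rule fixes, while most genes lie around 0 on both axes.

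Few members cleared the threshold by a wide margin. The gap, taken as the smaller value of the higher replicate number divided by the larger value of the other, had a median of 2.47 (range 2.00 to 12.9) among genes higher in replicate 2 and of 2.27 (range 2.00 to 27.1) among genes higher in replicate 1. It was at least 3 for 16 and 4 genes. Just inside the threshold were an unnamed gene and ttc39c, both with a gap of 2.00, and fmn1 (2.01), and just outside it was an unnamed gene (1.99). In the other direction mrps27 (2.00), an unnamed gene (2.01) and dph5 (2.01) were inside, and an unnamed gene (1.997), dctd (1.99) and crabp2 (1.97) outside.

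Surface genes of the epidermis were among the members higher in replicate 2. itln2 encodes an intelectin, a secreted lectin that binds microbial sugars, and was measured at 18.6 CPM in xPhf8 1, 97.1 in xPhf8 2, 8.24 in xRescue 1 and 95.7 in xRescue 2. Its relative itln1, the lectin that goblet cells of the Xenopus embryo secrete, stood at 51.7, 162.6, 32.9 and 203.3 CPM. Each replicate 2 library was thus at least 3.14 times (itln1) or 5.15 times (itln2) above the higher replicate 1 library, and the treatments overlapped. The 2 genes are next neighbours on chromosome 7 in the RefSeq annotation, and reads that fit both copies may be lost, so they do not count as independent.

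cldn1, a claudin of the tight junctions that seal epithelia, was measured at 32.0, 279.2, 3.85 and 101.6 CPM. krt12, an epithelial keratin, stood at 28.0, 60.6, 3.67 and 88.9 CPM. For both, xRescue 1 was the lowest library by a wide distance: 8.32 times below xPhf8 1 for cldn1 and 7.64 times below it for krt12. In replicate 2, the xRescue library was below xPhf8 for cldn1 (2.75 times) and above it for krt12. Of 5 measured claudins 1 was a member, and of 2 measured keratins 1, beside 1.04% of the 6472 genes in this direction. With so few genes measured nothing is read from these counts. Their relatives cldn4 (1479, 1350, 2595 and 2272 CPM) and krt19 (119.9, 82.6, 80.4 and 95.9 CPM) overlapped between the replicate numbers.

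Of the 14 measured genes in the goblet and outer epidermal list, 3 were members (itln1, itln2 and cldn1), beside 1.04% of the 6472 genes. In 6 of the 14 both replicate 2 libraries lay above both replicate 1 libraries (background over the 6472 genes, 15.5%), and in 2 the reverse held (background 22.4%). This background and those beside the later lists include genes without a name. List genes all have one, so the shares are not a like comparison. The further genes with replicate 2 above were evpl, otog and grhl2, the last a transcription factor of epithelial differentiation. The mucin-like otog stood at 1650, 2549, 2234 and 3374 CPM. The list was therefore divided: several abundant outer-layer transcripts followed the replicate number by less than 2-fold or not at all.

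Transporters of the ionocytes formed the second set. slc26a4 encodes pendrin, an exchanger of chloride for bicarbonate, and was measured at 146.7 CPM in xPhf8 1, 340.9 in xPhf8 2, 8.34 in xRescue 1 and 315.4 in xRescue 2. The anion exchanger slc4a9 stood at 22.9, 48.6, 2.05 and 57.9 CPM. atp6v1c2, a subunit of the proton pump V-ATPase, stood at 32.7, 89.0, 1.83 and 81.4 CPM. In these 3 genes the replicate 2 libraries of the 2 treatments were close to each other, differing by no more than 1.19-fold, and xRescue 1 alone was far below the rest: 17.6 times below xPhf8 1 for slc26a4, 11.2 times for slc4a9 and 17.8 times for atp6v1c2. The value of atp6v1c2 in xRescue 1 rested on 51 reads, beside 291 reads on the opposite strand of that locus, and that of slc4a9 on 57 reads.

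slc4a1, another anion exchanger, differed from these in being less uneven: it was measured at 25.6, 64.6, 15.5 and 52.2 CPM, so xRescue 1 was 1.65 times below xPhf8 1. With library sizes adjusted by TMM (trimmed mean of M values) or by DESeq2 size factors, slc4a1 was no longer a member, whereas the other 3 remained members.

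Of the 12 measured ionocyte genes, these 4 were members, beside 1.04% of the 6472 genes. In 6 of the 12 both replicate 2 libraries lay above both replicate 1 libraries (background 15.5%), with none in the reverse order (background 22.4%). The others of the 6 were atp6v0a4, a V-ATPase subunit, at 35.5, 64.5, 0.935 and 44.3 CPM, and the carbonic anhydrase ca12 at 41.2, 50.9, 6.15 and 46.3 CPM. The remaining 6 overlapped between the replicate numbers, among them foxi1, the transcription factor that specifies ionocytes, at 210.0, 176.0, 64.1 and 197.3 CPM, and ca2 at 63.7, 91.6, 0 and 48.9 CPM, with 0 reads in xRescue 1. xRescue 1 was the lowest library for 12 of 12 (background 27.1%). The log2 ratio of xRescue over xPhf8 had a median of -2.94 over the 12 genes in replicate 1, with 12 below 0, and of -0.32 in replicate 2, with 10 below 0. The summed level of the list was 868.2, 1298, 151.5 and 1075 CPM, so 3 libraries lay within 1.5-fold of each other and xRescue 1 stood apart. When xPhf8 1 was left out, 12 of 12 had both replicate 2 libraries above xRescue 1, against 33.4% of all genes. When xRescue 1 was left out, 6 of 12 had both replicate 2 libraries above xPhf8 1, against 30.3%. The part of the low gene detection of xRescue 1 in these values was not tested.

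**Figure D2:**
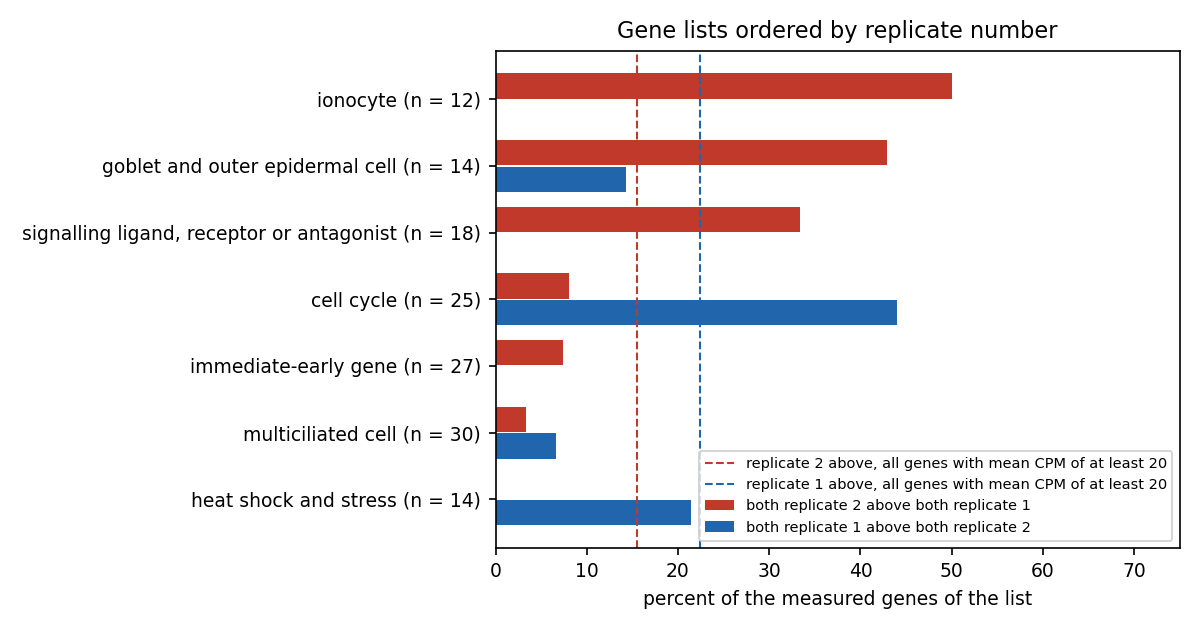
Share of the measured genes of each list (x axis, percent of list genes with a mean CPM of at least 20) whose replicate 2 libraries both lay above, or whose replicate 1 libraries both lay above, the libraries of the other number, with dashed lines at the shares over all 6472 genes (15.5% and 22.4%). The ionocyte list (6 of 12) and the goblet and outer epidermal list (6 of 14) hold more genes with replicate 2 above than in the reverse order, and the cell cycle list (11 of 25) more with replicate 1 above. The lists hold named genes only, whereas the dashed lines include genes without a name.

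Further genes of ion and metabolite transport were among the members outside that list. slc13a5, a sodium-coupled carrier of citrate, was measured at 3.27, 53.9, 3.24 and 21.1 CPM. Its gap of 6.45 was the widest of any member with a gene symbol, and its replicate 1 libraries were nearly equal. wnk4, a kinase that regulates salt transport in the mammalian kidney, was chosen after its values were seen. It stood at 14.6, 56.0, 13.2 and 32.5 CPM, and also had replicate 1 libraries close together. The proton pump subunit gene atp12a-like.2 stood at 19.9, 240.7, 2.77 and 54.7 CPM, with xPhf8 2 far above the rest and xRescue 1 lowest on 77 reads. Among 66 measured solute carriers, 4 were members, all higher in replicate 2 (1.04% of the 6472 genes were). They were slc13a5 and the ionocyte members slc26a4, slc4a9 and slc4a1 already given above, so the 2 sets are not separate. In 16 of the 66 both replicate 2 libraries lay above and in 3 below both replicate 1 libraries, beside backgrounds of 15.5% and 22.4%.

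Small secretory cells were represented by 3 measured genes, of which foxa1 and ptgs1 were members, beside 1.04% of the 6472 genes. With only 3 measured, nothing is read from this count. foxa1, the forkhead factor that marks and specifies these cells in Xenopus, was measured at 4.17 CPM in xPhf8 1, 69.5 in xPhf8 2, 8.56 in xRescue 1 and 27.1 in xRescue 2. ptgs1, a cyclooxygenase that makes prostaglandin precursors, stood at 8.15, 55.9, 4.46 and 16.8 CPM. In both genes xPhf8 2 was the highest library, above xRescue 2 by 2.56 times for foxa1 and 3.34 times for ptgs1. The gap of ptgs1, 2.06, fell under the threshold with TMM or DESeq2 size factors. The third gene, chga, which encodes a protein of secretory granules, was measured at 187.9, 799.6, 38.2 and 35.4 CPM and did not follow the replicate number, since both xRescue libraries were below both xPhf8 libraries. tp63, the transcription factor of basal epidermal cells and the 1 measured gene of its list, stood at 287.7, 825.5, 94.6 and 306.2 CPM. It kept the order of the members, with a gap of only 1.06.

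**Figure D3:**
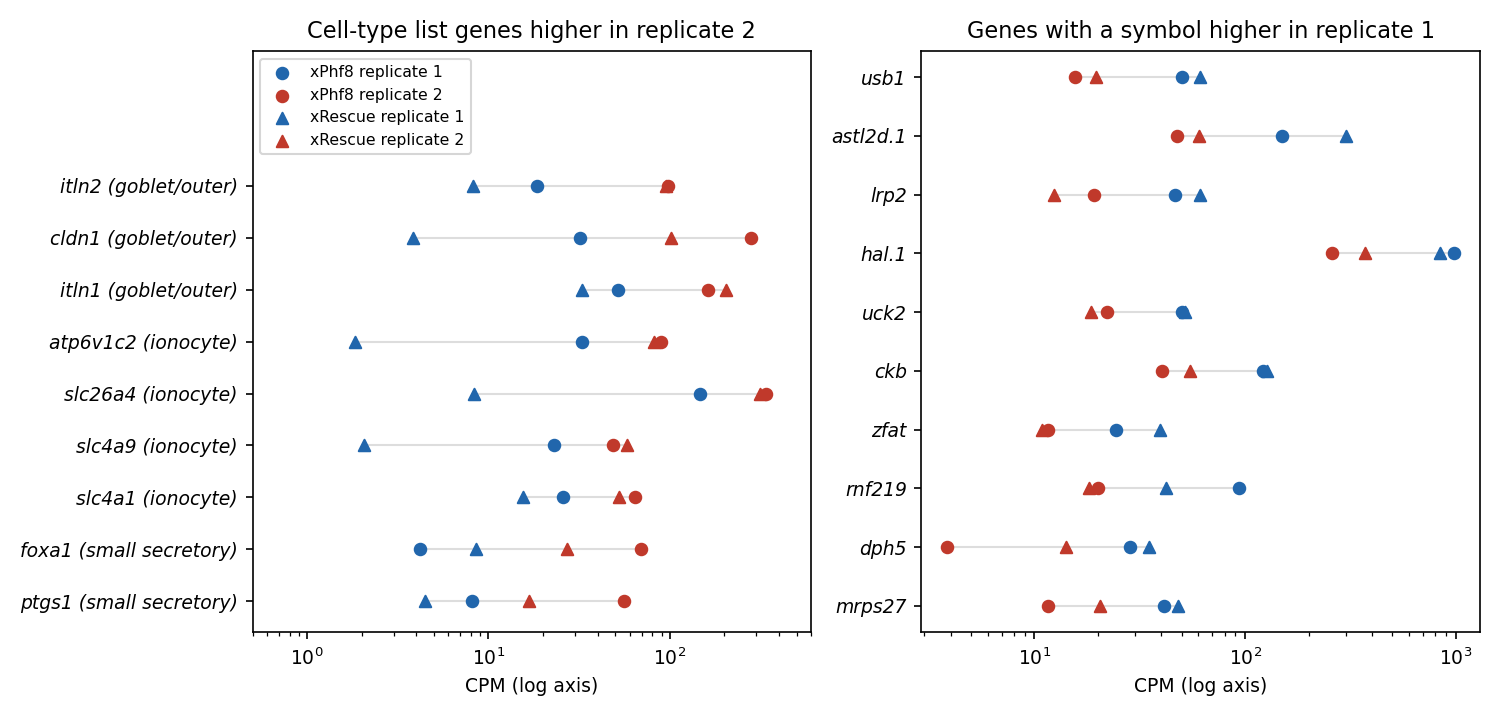
Level of selected members in each of the 4 libraries (CPM, log axis), with each point 1 library. The first panel holds only those members higher in replicate 2 that are in the ionocyte, small secretory or goblet and outer epidermal list. The second panel holds the members with a symbol that were higher in replicate 1. Replicate 2 points lie to the right of replicate 1 points in the first panel and to the left in the second, and xRescue 1 is far below the rest for slc26a4, slc4a9 and atp6v1c2.

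Genes that act on DNA and chromatin were also members. tet3, an enzyme that oxidises methylated cytosine, was measured at 37.6, 165.3, 26.5 and 78.0 CPM. Its relative tet2, chosen for its relation to tet3 after its values were seen, stood at 19.8, 103.5, 5.07 and 45.2 CPM. Both were highest in xPhf8 2, 2.12 and 2.29 times above xRescue 2, and tet3 was no longer a member under TMM. atf7ip, a partner of the histone methyltransferase SETDB1 in mammals, stood at 45.3, 181.4, 50.6 and 124.9 CPM, with replicate 1 libraries close together. Also chosen after their values were seen, the GATA cofactor gene zfpm1 stood at 9.84, 119.1, 6.26 and 25.2 CPM and the POU factor gene pou2f3 at 5.37, 61.4, 3.74 and 12.44 CPM. In both of these xPhf8 2 stood apart from the rest, 4.73 and 4.93 times above xRescue 2.

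Some members regulate adhesion or the actin skeleton. fermt1 encodes a kindlin, which activates integrins, and was measured at 6.65, 47.9, 2.95 and 31.5 CPM. arhgef26 stood at 6.50, 33.2, 7.77 and 36.9 CPM. scin, which severs and caps actin filaments, stood at 44.8, 182.7, 27.0 and 122.6 CPM. In arhgef26 the 2 treatments were almost level at each replicate number, whereas fermt1 and scin were lower in xRescue in both replicates. fmn1, a formin that elongates actin filaments, lay at the edge of the rule with 34.5, 75.3, 14.6 and 69.3 CPM. Further members of this kind, chosen after their values were seen, were the focal adhesion scaffold gene nedd9 at 16.1, 130.7, 20.6 and 46.3 CPM and the kinase gene ptk2b at 12.7, 49.3, 23.0 and 61.7 CPM. Unlike the ionocyte transporters, both had xRescue 1 above xPhf8 1. No list of adhesion or actin genes was fixed, so no count stands beside these.

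Several members act on lipids or membrane traffic. napepld, which makes the precursors of N-acylethanolamine lipids, was measured at 19.9, 99.5, 20.0 and 78.0 CPM. synj2, a phosphoinositide phosphatase, stood at 12.7, 41.1, 14.0 and 52.2 CPM. sgpp2, which dephosphorylates sphingosine-1-phosphate, stood at 20.5, 58.7, 19.9 and 65.6 CPM. For these 3 genes the treatments differed by no more than 1.28-fold at either replicate number, less than the step between the replicate numbers. ehbp1l1, a protein of vesicle transport, stood at 12.1, 35.3, 8.38 and 38.5 CPM, and the endocytic adaptor epn3 at 52.8, 107.5, 15.3 and 113.8 CPM. epn3 resembled the ionocyte transporters in having a low xRescue 1 beside similar replicate 2 libraries.

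The remaining abundant members included ksr1, a scaffold of the RAF and MEK kinases, at 40.2, 253.5, 36.8 and 115.6 CPM. man1a1, a mannosidase that trims glycans in the Golgi, stood at 58.1, 178.3, 60.7 and 154.8 CPM. stard9, a kinesin-like protein, stood at 48.5, 172.4, 28.6 and 114.3 CPM. All of these had xPhf8 2 as the highest library and replicate 1 libraries within 1.70-fold of each other. artn, which encodes the secreted ligand artemin, was measured at 9.69, 119.9, 0.863 and 22.2 CPM, so it was highest in xPhf8 2 and rested on 24 reads in xRescue 1. The widest gap of all in this direction, 12.9, belonged to LOC100495470, an uncharacterised locus at 2.55 CPM in xPhf8 1, 207.1 in xPhf8 2, 0 in xRescue 1 (0 reads) and 32.9 in xRescue 2. Against a floor of 3 reads in xRescue 1, xRescue 2 was at least 305-fold higher.

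The members not given by value here followed the same order by construction. The 10 unnamed genes higher in replicate 2 had mean levels of 21.9 to 179.9 CPM and gaps of 2.00 to 5.72, and 5 of them had a gap of at least 3. Among named ones were ltbp1, which stores latent TGF-beta in the matrix, at 20.5, 122.9, 4.82 and 50.1 CPM, and enpp2, the secreted enzyme autotaxin, at 16.7, 55.7, 12.5 and 41.4 CPM, both chosen after their values were seen. In each the xRescue library was below xPhf8 at both replicate numbers.

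Low read numbers limited some of these values. In xRescue 1, 7 of the 67 genes higher in replicate 2 had under 100 reads, with a median of 319 reads over the 67, and in xPhf8 1 it was 3 of 67, with a median of 471. In the replicate 2 libraries the smallest number was 336 reads. The opposite strand of these genes held 0.572%, 0.266%, 3.17% and 0.546% of their reads on both strands, so xRescue 1 stood highest, beside 0.489% to 0.927% over all 6472 genes. The total on both strands includes the counts that the rule used, which are lower in replicate 1 by construction. The share of these genes, also where tested below, is thus not independent of the rule. Single loci held much of the xRescue 1 share: 291 opposite-strand reads in atp6v1c2, 167 in an unnamed gene and 111 in sema4b. Most of the genes had none there. Counted without regard to strand, 61 of the 67 remained members. The share for these 67 genes was 0.419% ± 0.216 in xPhf8 and 1.86% ± 1.86 in xRescue (SD, n = 2, two-sided exact permutation p = 0.667), and for all 6472 genes 0.513% ± 0.034 and 0.844% ± 0.117 (exact permutation p = 0.3333). The smallest p that 2 against 2 libraries can give is 0.3333, so a difference could not be established either way.

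The 37 genes higher in replicate 1 were mostly without a name: 11 of 37 had one, against 57 of 67 in the other direction and 47.3% of the 6472 genes. Names were available here only for genes listed in the study's shortened supplementary tables, which rank genes by tests that include these libraries, so these shares depend on that ranking as well as on the genes.

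hal.1, a histidine ammonia-lyase that turns histidine into urocanate, was the most abundant, at 984.4 CPM in xPhf8 1, 257.6 in xPhf8 2, 842.9 in xRescue 1 and 368.8 in xRescue 2. ckb, a creatine kinase that buffers ATP, stood at 121.8, 40.3, 127.3 and 54.6 CPM. Both replicate 1 libraries were similar in each, and the treatments overlapped. astl2d.1, a metalloprotease of the astacin family, stood at 150.3, 47.4, 301.1 and 60.5 CPM, with xRescue 1 highest, 2.00 times above xPhf8 1. lrp2, the endocytic receptor megalin, stood at 46.3, 19.1, 61.1 and 12.36 CPM, again with xRescue 1 highest.

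The other members of this direction with a symbol had varied roles. uck2, a kinase that salvages uridine and cytidine, was measured at 50.1, 22.1, 51.9 and 18.5 CPM. usb1, a nuclease that trims a spliceosomal RNA, stood at 49.9, 15.6, 61.0 and 19.6 CPM, and its gap of 2.55 was the widest among those with a symbol. mrps27, a protein of the mitochondrial ribosome, stood at 41.1, 11.6, 48.1 and 20.5 CPM. In uck2, usb1 and mrps27 the replicate 1 libraries were within 1.22-fold of each other. dph5, an enzyme of diphthamide synthesis on elongation factor 2, stood at 28.3, 3.83, 35.1 and 14.1 CPM. The zinc finger gene zfat was measured at 24.5, 11.6, 39.3 and 10.8 CPM and the ubiquitin ligase gene rnf219 at 94.0, 20.0, 41.9 and 18.1 CPM. Those last 3 were no longer members under TMM or DESeq2 size factors. The widest gap in either direction, 27.1, belonged to an unnamed identifier, gene1587, at 85.8, 3.16, 312.0 and 1.33 CPM. The 26 unnamed genes of this direction had mean levels of 20.4 to 288.1 CPM and held all 4 of its gaps of at least 3. For 4 of them over 5% of the reads lay on the opposite strand, up to 34.5%.

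Other gene groups were read for the order of the replicate numbers beyond the members. Over the 6472 genes, 1.04% were members higher in replicate 2 and 0.572% higher in replicate 1. A list of this size with 0 members therefore says little. Of 25 measured cell cycle genes, 0 were members, but in 11 both replicate 1 libraries lay above both replicate 2 libraries (background 22.4%) and in 2 the reverse held (15.5%). The 11 included mcm7 of the replicative helicase at 777.1, 515.7, 814.0 and 507.0 CPM and the mitotic kinesin gene kif20a at 413.4, 246.0, 380.0 and 222.7 CPM. cenpf, a kinetochore protein, stood at 201.4, 100.3, 154.0 and 88.9 CPM. In each of these 3 genes the gap was between 1.51 and 1.54, below the rule but among the widest of the 11. Others of the 11 barely separated, with gaps of 1.004 for bub1, 1.03 for aurka and 1.06 for ttk. With 1 library left out at a time, 14 to 16 of the 25 had replicate 1 above, against 30.5% to 45.2% of all genes.

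Of 30 measured multiciliated cell genes, 0 were members, 1 had replicate 2 above and 2 had replicate 1 above, both shares under their backgrounds of 15.5% and 22.4%. In 25 of the 30 xRescue was below xPhf8 in both replicate pairs (background 29.9%), and xRescue 1 was the lowest library in 23 of the 30 (background 27.1%). In the ionocyte list 10 of 12 were below in both pairs, but the summed levels of the 2 lists differed in order. They were 5249, 3547, 1936 and 2766 CPM for the multiciliated list, with both xRescue libraries lowest. For the ionocyte list they were 868.2, 1298, 151.5 and 1075 CPM, with xRescue 2 above xPhf8 1. Among 18 measured signalling genes, 6 had replicate 2 above (background 15.5%) and none the reverse (background 22.4%), and none were members. The 6 included the receptor genes egfr (66.5, 119.6, 55.6 and 92.4 CPM) and erbb3 (73.0, 104.4, 69.1 and 97.1 CPM). They counted notch2 under separate identifiers, with gaps of 1.17 and 1.43, so the 6 are not all different genes. The gaps of bmp7.1 and wnt5b were only 1.12 and 1.07. Of 27 immediate-early genes, which respond within minutes to handling or stimulation, 0 were members and 2 had replicate 2 above, under the background of 15.5%. In xRescue, 26 of the 27 were above xPhf8 in both pairs (background 39.7%). Among 14 heat shock and stress genes 0 were members and 3 had replicate 1 above, near the background of 22.4%.

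By the rule, no member can have treatments that do not overlap, so the comparison of xRescue with xPhf8 was read within each replicate number. Among genes higher in replicate 2, the median log2 ratio of xRescue over xPhf8 was -0.41 in replicate 1 and -0.30 in replicate 2, against 0.02 and 0.12 over all 6472 genes. In 37 of the 67 (55.2%, background 29.9%) xRescue was below xPhf8 in both pairs, and in 5 (7.46%, background 39.7%) above in both. Among genes higher in replicate 1 the medians were 0.05 and 0.07, with 5 of 37 (13.5%) below in both pairs and 10 (27.0%) above in both. TMM library sizes shifted every gene by -0.13 in the replicate 1 pair and by -0.16 in the replicate 2 pair on the log2 scale. With them, 46 of the 67 (68.7%) were below in both pairs, beside 39.6% of all genes, and of the 37, 12 were below and 6 above.

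xRescue 1 was the lowest library for 50 of the 67 genes (74.6%, background 27.1%). The rule leaves only the 2 replicate 1 libraries to be lowest here, so the background is not a like comparison. xRescue 1 was the highest for 22 of the 37 genes higher in replicate 1 (59.5%, background 34.2%). There too the rule leaves only the 2 replicate 1 libraries to be highest, so that background is not a like comparison either. In 8 members xRescue 1 was at least 7 times below xPhf8 1 or had 0 reads, all of them higher in replicate 2: slc26a4, slc4a9, atp6v1c2, cldn1, krt12, artn, atp12a-like.2 and LOC100495470. In 7 members, a set formed after the values were seen, xPhf8 2 was at least 3 times above each of the other libraries: LOC100495470, artn, pou2f3, zfpm1, atp12a-like.2, tusc5 and ptgs1, of which LOC100495470, artn and atp12a-like.2 belong to both sets.

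**Figure D4:**
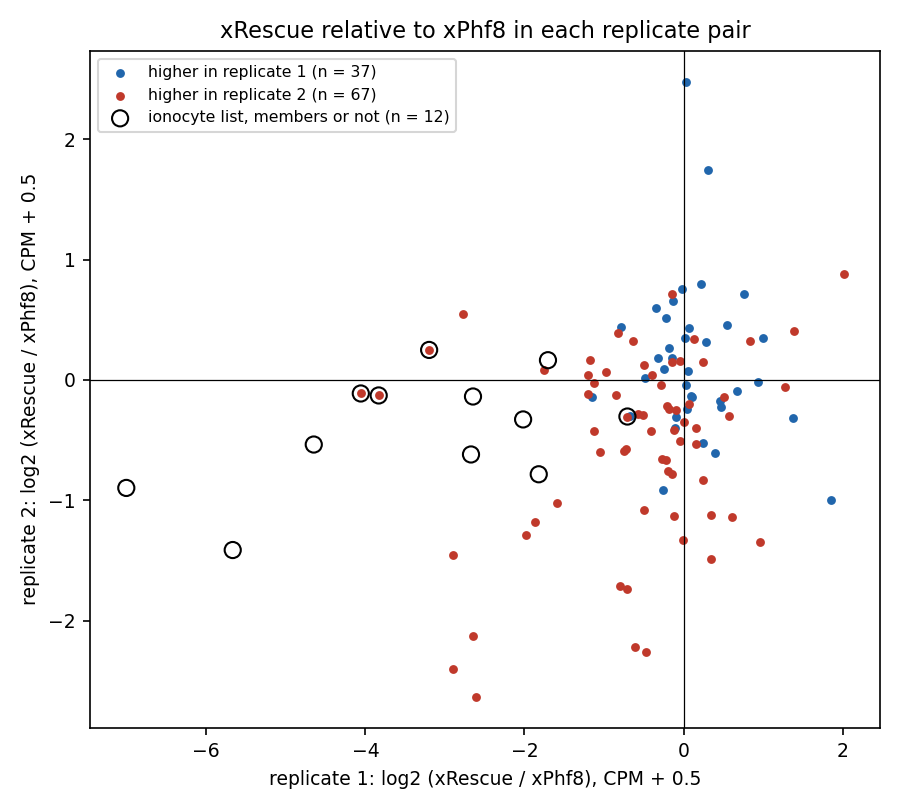
Ratio of xRescue over xPhf8 in replicate 1 (x axis, log2 of CPM plus 0.5) against that in replicate 2 (y axis) for the 104 members, coloured by direction. The 12 measured genes of the ionocyte list, members or not, are circled, and no other genes are drawn. Genes higher in replicate 2 lie mostly left of and below 0 (37 of 67 below 0 on both axes), and the circled ionocyte genes spread from -7.00 to -0.71 on the x axis and from -1.41 to 0.25 on the y axis.

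In the edgeR quasi-likelihood comparison of xRescue with xPhf8, 0 of the 104 members passed an adjusted p of 0.05, and 0 had an unadjusted p under 0.05. The rule leaves the treatments overlapping in each member, so this outcome was largely fixed by the choice of members and nothing is read from it. Over the 14716 genes tested, 5 were called (0.034%) and 1439 had an unadjusted p under 0.05 (9.78%). DESeq2 also called 0 members, with 2 at an unadjusted p under 0.05, and called 540 of all genes (3.67%). The median log2 fold change was -0.53 for the 67 genes higher in replicate 2 and -0.08 for the 37 others, against -0.06 over all genes tested. The largest differences downward were LOC100495470 (log2 fold change -2.84, SE 2.31, edgeR adjusted p = 0.773), artn (-2.65, SE 1.53, edgeR adjusted p = 0.650) and atp12a-like.2 (-2.34, SE 1.46, edgeR adjusted p = 0.673). Among members with a symbol or LOC number, the largest upward were astl2d.1 (0.73, SE 0.77), dph5 (0.49, SE 0.89) and LOC101735110 (0.45, SE 0.84). Several unnamed members had larger values, up to 1.68 (SE 1.96) in gene1587. These values come from the fit without a replicate block, whose spread includes the step between the replicate numbers.

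The named members lay on all 10 chromosomes of assembly v9.1 and, for 2 of them, on scaffolds. Of the 57 named genes higher in replicate 2, 12 were on chromosome 5, which held 9.28% of the named genes with a mean CPM of at least 20, and 8 were on chromosome 2 (11.0%). Of the 11 named genes higher in replicate 1, 5 were on chromosome 4 (10.53%). Among the 58 members found in the RefSeq table, the lectin pair itln1 and itln2 was the only set of next neighbours.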

How the data were processed

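Total RNA of the 4 libraries was depleted of ribosomal RNA and turned into strand-specific libraries. The authors aligned reads with STAR (version 2.7.1a) to the Xenopus tropicalis v9.1 assembly with Xenbase gene models converted with Cufflinks, and deposited whole-number counts per gene, unstranded and for either strand, neither normalised nor pooled. Counts of the strand matching the library kit were used. Rows for unassigned reads and for features lacking a gene identifier were left out; the latter held 4.18% to 9.90% of feature reads. Counts are of reads, not of unique molecules, and intervals or floors cover counting error only. CPM was computed from the sum of gene reads and is not divided by gene length, so levels are compared within genes only.

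xRescue was compared with xPhf8 by the quasi-likelihood test of edgeR (version 4.0.16, R 4.3.3) on the 14716 genes that had a read (minimum 1) in no fewer than 3 libraries, with TMM scaling, no block and Benjamini-Hochberg adjustment over all genes. DESeq2 (version 1.42.0) was an alternative, as were other folds, CPM minimums, scalings, unstranded counts, a replicate block and leaving out each library. The SE given with an edgeR log2 fold change is its absolute value divided by the square root of the test's F statistic, so it is approximate. The edgeR script was tested on simulated data. The members, gene lists and tests were chosen with earlier results of these data known.

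Named genes were, in each direction, the 12 members with a symbol of highest mean CPM and the 12 of widest gap. Added to these were members in a marker list or gene family and the genes at the threshold. The 3 largest differences either way between treatments were taken among members with a symbol or LOC number. Genes named outside this rule are stated as such. Names and chromosomes came from the 5 of the study's supplementary tables that pair identifiers with names, 6623 identifiers in all. LOC numbers were looked up by gene identifier in RefSeq (UCB_Xtro_10.0), another build, so no coordinates are given. No sequences are shown. Opposite-strand shares were compared with an exact permutation test. Some genes that met the naming rule are not reported here.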

Additional observations from a re-analysis of the deposited data

How the results depend on the processing

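The number of members depended on the thresholds by construction. A fold of 1.5 gave 220 genes higher in replicate 2 and 191 higher in replicate 1, and a fold of 3 gave 16 and 4. A mean CPM of at least 10 gave 126 and 65, of at least 50 gave 23 and 12, and no minimum gave 981 and 478. TMM library sizes gave 69 and 25 (58 and 22 shared with the members) and DESeq2 size factors 73 and 23 (62 and 22 shared); the cause was not tested. Leaving out 1 library at a time relaxed the fold condition but took the mean CPM over the remaining libraries. It gave 82 to 398 genes higher in replicate 2 and 100 to 273 higher in replicate 1. Of these, 49 to 67 and 28 to 37 were shared with the members. The smallest numbers of genes came without xPhf8 2. The largest came without xPhf8 1 for replicate 2 and without xRescue 2 for replicate 1.

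Same-numbered libraries deviated together from their group means (Pearson r 0.22 and Spearman rho 0.26 across 14716 genes, which are not independent replicates), but the labels give no shared batch and there are only 2 pairs, so the libraries are taken to share a number only. The replicate block gave 8 called members instead of 0, among 700 calls over all 14716 genes, with median log2 fold changes of -0.61 and -0.023 for the genes higher in replicate 2 and in replicate 1. The 8 members, all lower in xRescue, included atp12a-like.2 (edgeR adjusted p = 0.00081), artn (0.00126) and LOC100495470 (0.00467). DESeq2 with the block gave 9 called members among 1229 calls, and a median of -0.012 for the genes higher in replicate 1. The block removes the step between replicate numbers for which the rule chose the members, from the same values. Nothing is therefore read from the members called with the block. No filter on low counts gave 11 called members, 10 lower and 1 higher in xRescue, among 726 calls over 19599 genes. The cause was not tested. The median of the genes higher in replicate 1 was -0.040 when each library had to hold 10 reads or more, -0.14 with unstranded counts and -0.045 with upper-quartile scaling. With 1 library left out the medians ranged from -1.98 to 0.68 and from -1.05 to 0.88, so their direction rests on single libraries: the lone library of a group is then assumed to vary like the others.

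Single members changed sign with a library left out. artn ranged from -6.46 (without xRescue 2) to 0.21 and atp12a-like.2 from -5.79 (without xRescue 2) to 0.48, both highest without xPhf8 2. LOC101735110 ranged from -0.52 (without xRescue 2; -0.31 without xPhf8 1) to 2.27, dph5 from -0.30 (without xPhf8 2; -0.26 without xRescue 1) to 2.48 and astl2d.1 from -0.79 (without xRescue 1) to 1.72. With 1 library left out, 6 to 12 of the 18 signalling genes had replicate 2 above, and 6 to 12 of the 12 ionocyte genes. Without xPhf8 1, xPhf8 2, xRescue 1 and xRescue 2 in turn, the signalling share was 38.9%, 33.3%, 66.7% and 55.6%. The ionocyte share was 100%, 50%, 50% and 91.7%, and that of all 6472 genes 33.4%, 27.8%, 30.3% and 25.4%. Without either xPhf8 library the signalling share was thus near that of all genes.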
